A study of Mus musculus with 20 samples.

Results

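The effect of high dietary fat on the aged mouse heart was examined at a normal protein content, by comparing left ventricular transcripts of mice on the high-fat diet (HF) with those of mice on the normal protein diet (NP). The comparison used 10 of the 20 libraries of the study, the 5 labelled as high fat and the 5 labelled as normal protein, and every gene with enough counts for a test was described. Both diets drew the same share of their energy from protein, chiefly casein, and in HF more lard took the place of corn starch. All mice were male, were labelled as 18 months old (the study's methods place the tissue collection earlier), and were fed custom diets without restriction; strain and genotype are not given in the sources used here. The other 10 libraries came from mice on a low protein diet without (LP, n = 5) or with high fat (HF+LP, n = 5), and they were used for the shared estimate of the spread between mice and for the same fat contrast at low protein. The weights in the sample labels, which carry no unit, were 58.9 ± 1.76 in HF and 43.0 ± 7.82 in NP (SD, n = 5), with no NP mouse as heavy as the lightest HF mouse (exact permutation p = 0.00794, two-sided, below which 2 groups of 5 cannot go).

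The adult heart draws most of its energy from fatty acids and switches between fatty acids and glucose with supply, under nuclear receptors of the PPAR family, glucose-responsive factors of the Mondo family, and the cellular clock. Contraction rests on myosin of the sarcomere and on calcium that enters through L-type channels and is released through ryanodine receptors, while fibroblasts, vessels, and a population of resident and recruited macrophages surround the muscle cells and maintain the matrix. In chronic overfeeding these tissues are known to gain macrophages and matrix, and the muscle cells are known to change their substrate use. The libraries were made with a kit that primes on stretches of A at the 3′ end of an RNA, so a gene's count reflects the number of captured 3′ ends and does not grow with its length.

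Total counts lay between 12559607 and 20111272 in HF and between 14250780 and 20469775 in NP, and did not differ detectably (difference 266208, exact permutation p = 0.881). Ventricular markers were high in all 10 libraries, with a summed level of 59411 to 72615 CPM (counts scaled to the same total in each library) in HF and 65549 to 76645 CPM in NP. Markers of the atria (Nppa, Myl4, Myl7, Sln, and others) were uneven. They summed to 12460 CPM in HF mouse 1 and 4820 CPM in HF mouse 3, to 126 to 204 CPM in the other 3 HF mice, and to 149 to 3259 CPM in NP. HF mouse 3 also held the most adipocyte marker counts, 189 CPM against 1.57 to 6.75 CPM in the other HF mice and 2.59 to 93.7 CPM in NP. Leading counts are therefore also given without HF mice 1 and 3, a setting chosen after these values had been seen. It leaves out no NP mouse, so it turns the imbalance around and does not remove it. The median log2 fold change between HF and NP went from 1.25 to −4 for the 6 atrial markers. For the 9 adipocyte markers it went from −0.195 to −4.05.

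A gene was called when its Benjamini-Hochberg adjusted p was under 0.01 and its mean normalized count over the 20 libraries was over 50 (edgeR's quasi-likelihood test over all 4 groups). A normalized count is the count scaled to a common library size. Of 13991 genes tested, 37 were called (0.264%), 7 of them higher in HF (0.050%) and 30 lower (0.214%). The ranges of HF and NP were separate for each of the 37, while over all genes tested the HF range lay wholly above that of NP for 2.07% and wholly below for 3.60%. All 7 higher genes are protein-coding, whereas 12 of the lower genes are protein-coding, 17 are non-coding, and 1 is a pseudogene. Without HF mice 1 and 3, 20 higher and 16 lower genes were called, of which 19 were among the 37. When each of the 10 mice was left out in turn, 19 of the 37 genes were called every time (3 higher and 16 lower).

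**Figure D1:**
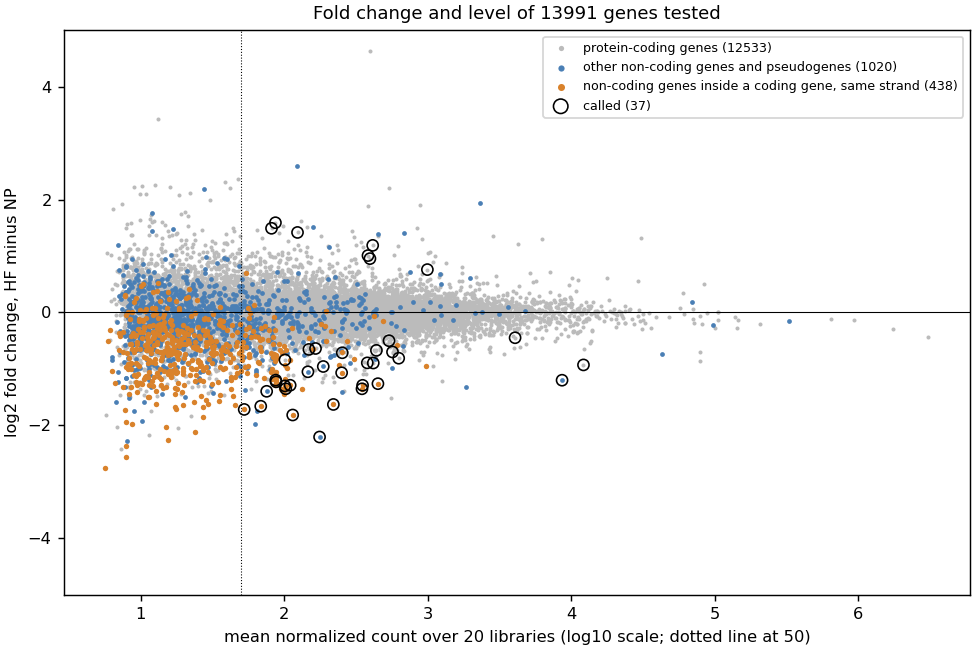
The log2 fold change between HF and NP (vertical axis) is plotted against the mean normalized count on a log10 scale (horizontal axis) for the 13991 genes tested, each point being a gene coloured by annotation. The 37 called genes are circled, and the orange points, 438 non-coding genes that lie inside a coding gene on its strand, sit mostly below zero.

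Mthfd2, a mitochondrial enzyme of folate metabolism whose transcript is low in most adult tissues, rose most among the genes called in every leave-one-out fit. Its normalized counts were 141, 130.5, 106, 126 and 125 in HF mice 1 to 5, and 35.2, 54.9, 40.6, 45.6 and 46.4 in NP mice 3, 4, 5, 6 and 8. Every HF mouse lay well above the highest NP mouse, and the log2 fold change was 1.49 (standard error 0.20, adjusted p = 0.000527).

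The chemokines Ccl6 and Ccl8, which attract monocytes and other leukocytes, both rose. In the same order of mice, Ccl6 (chromosome 11, 83587882 to 83593087) had 448, 737, 619, 509 and 550.0 in HF and 288, 234, 296, 316 and 287 in NP (log2 fold change 1.01 ± 0.14 standard error, adjusted p = 0.000674). Ccl8 (chromosome 11, 82115185 to 82116799) had 197, 253, 261, 180.4 and 216 in HF and 60.5, 77.6, 77.4, 102 and 95.0 in NP (log2 fold change 1.42 ± 0.26 standard error, adjusted p = 0.00782). HF mouse 1 was the lowest of its group for Ccl6 but not for Ccl8. Ccl8 lost its call in each of the 10 fits without 1 mouse, with adjusted p from 0.0107 to 0.0317. Of the other called higher genes, Emp1 was called in 3 of these fits, Ctss in 2, and Phf11b in 1, with adjusted p reaching 0.0179, 0.0208, and 0.0365. Without HF mice 1 and 3 together, Ccl8, Emp1, and Fstl1 lost their calls, with adjusted p of 0.0223, 0.0194, and 0.0110.

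Ctss, the gene of cathepsin S, with which antigen-presenting cells cleave the invariant chain in lysosomes, had 390.3, 633, 515, 626 and 629.8 in HF and 273, 269.7, 302, 299 and 299 in NP. Its NP mice lay close together, and HF mouse 1 was again the lowest of the HF mice (log2 fold change 0.95, adjusted p = 0.00489). Phf11b, a gene induced by interferon, spread most among the higher genes, with 80.1, 245, 134, 221 and 173 in HF and 55.0, 26.3, 74.7, 68.8 and 57.7 in NP (log2 fold change 1.59, standard error 0.29, adjusted p = 0.00857). Summed counts of interferon and MHC class I genes were likewise lowest in HF mouse 1, at 2320 CPM against 3341 to 4708 CPM in the other HF mice and 1835 to 2749 CPM in NP.

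Fstl1, a secreted glycoprotein of fibroblasts and muscle, and Emp1, a small membrane protein of epithelial and stromal cells, were the other called higher genes. Fstl1 (chromosome 16, 37776873 to 37836514) had 1557, 1476, 1240.0, 1173 and 1497 in HF and 889, 687, 856, 921 and 744 in NP, and rose by 0.76 on the log2 scale (standard error 0.12, adjusted p = 0.00174). Emp1 (chromosome 6, 135362545 to 135383173) had 603, 420.4, 675, 582 and 799 in HF and 339, 241, 247, 259 and 266 in NP, and rose by 1.19 (standard error 0.20, adjusted p = 0.00408). The highest NP value of Emp1, in NP mouse 3, stood well above those of the other NP mice.

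The 12 lower protein-coding genes fell by 0.45 to 0.93 on the log2 scale. Kmt2d, a methyltransferase that marks enhancers on histone H3, had 224, 223, 302, 249 and 289 in HF and 420.4, 543, 483, 433 and 516 in NP (log2 fold change −0.89, standard error 0.11, adjusted p = 0.000174). Nav2, a protein that binds microtubules (chromosome 7, 48908716 to 49610090), had 421, 431, 424, 421 and 422 in HF and 886, 624, 755, 668 and 784 in NP. The 5 HF mice differed by only a few percent for Nav2 and all lay below the lowest NP mouse (log2 fold change −0.81, standard error 0.11, adjusted p = 0.000527).

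The other lower coding genes include several that encode transcription factors. The zinc finger repressor Zbtb20, an abundant transcript, ranged over 6943 to 9155 in HF and 10626 to 19533 in NP (log2 fold change −0.93, adjusted p = 0.00416). The zinc finger homeobox genes Zfhx2 and Zfhx3 fell by 0.64 and 0.70, the calcineurin-regulated factor Nfatc2 fell by 0.65, and Safb2, which binds nuclear scaffolds and RNA, fell by 0.67 on the log2 scale. Mlxipl, which encodes the glucose-responsive factor ChREBP, ranged over 164 to 201 in HF and 247 to 365 in NP (log2 fold change −0.71, adjusted p = 0.00857). Gramd1b, a carrier of cholesterol between the plasma membrane and the endoplasmic reticulum, fell by 0.90, and the giant scaffold protein Ahnak fell by 0.45, with 3111 to 3549 in HF against 4279 to 4673 in NP. Leng8 and the membrane protein Tmem245 fell by 0.84 and 0.50. Nfatc2 was called in 0 of the 10 leave-one-out fits (adjusted p from 0.0114 to 0.0208), Mlxipl, Zfhx3, and Ahnak were each called in 1, Leng8 in 2, Zbtb20 in 3, Tmem245 in 4, and Zfhx2 and Gramd1b in 6.

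**Figure D2:**
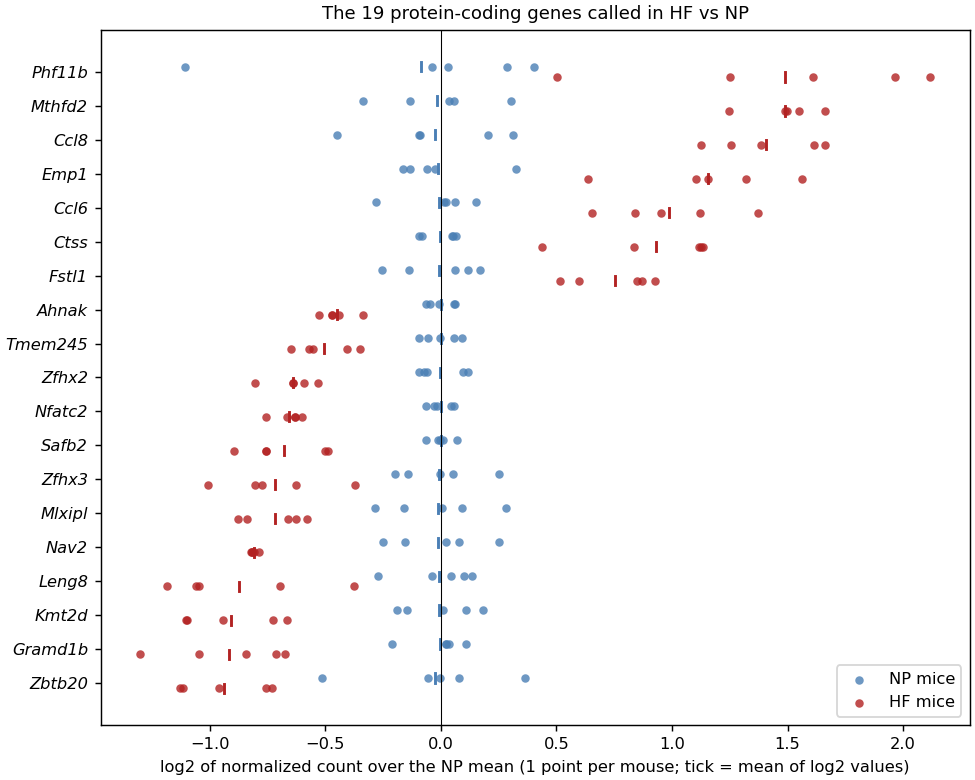
For the 19 called protein-coding genes, each point is a mouse, placed by the log2 of its normalized count over the NP mean (horizontal axis), with HF mice in red, NP mice in blue, and a short line at the mean of the log2 values (n = 5 per group). The red and blue points of a gene do not overlap, and Nav2 has the tightest HF points.

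Of the 18 lower genes without a coding annotation, 13 lie inside a protein-coding gene, on its strand and clear of its exons. They sit in 11 host genes, with 3 of them (Gm42972, Gm42971, and Gm42970) in Ank2, which encodes the ankyrin that anchors ion channels and transporters in heart muscle. Most carry the annotation TEC, a placeholder for transcripts that await experimental support. Because the kit primes on stretches of A, the longest run of A in each annotated transcript was examined. The stretches around the runs of 15 or more are given here from the GENCODE M21 transcripts (GRCm38), read 5′ to 3′ along the transcript with the run in capitals, and with Gm42972, the gene with the smallest p, for contrast.
BC002189 in Trim55 (chr3:19686507-19686568, plus strand): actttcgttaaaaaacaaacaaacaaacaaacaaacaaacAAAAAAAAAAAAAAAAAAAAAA
C530043K16Rik in Apbb2 (chr5:66592604-66592697, minus strand): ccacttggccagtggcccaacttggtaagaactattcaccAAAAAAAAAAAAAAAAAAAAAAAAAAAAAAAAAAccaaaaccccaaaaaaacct
Gm42432 in Map4 (chr9:110041825-110041907, plus strand): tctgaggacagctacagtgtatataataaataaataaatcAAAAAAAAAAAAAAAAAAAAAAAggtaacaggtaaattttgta
Gm37033 in Itpkb (chr1:180361302-180361379, plus strand): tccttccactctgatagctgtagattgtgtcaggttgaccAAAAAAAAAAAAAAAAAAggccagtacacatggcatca
Gm43813 in Mlxip (chr5:123406557-123406632, plus strand): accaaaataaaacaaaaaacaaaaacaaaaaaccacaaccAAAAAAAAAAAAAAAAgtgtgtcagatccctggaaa
Gm42972 in Ank2 (chr3:127267689-127267755, minus strand): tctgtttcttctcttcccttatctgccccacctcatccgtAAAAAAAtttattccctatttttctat

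The run closes the annotated transcript of BC002189, and in C530043K16Rik it comprises 34 A and lies 162 bases before the annotated end. Among the 13 called transcripts, 5 held a run of 15 or more A (38.5%), compared with 56 of all 438 tested genes of this kind (12.8%). A call needs a mean normalized count over 50, which 91 of the 438 reached, so these shares differ in count level too. Of the 152 that were lower at an unadjusted p under 0.05, 15.8% held such a run, beside 11.2% of the 286 others. Over the 438, those with such a run had a median log2 fold change of −0.71 and those without it of −0.66. The longest run in Gm42972 is 7 A. Where priming took place on these RNAs was not tested. Whether a count comes from a separate transcript or from unspliced RNA of the host gene cannot be told apart in these counts.

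Normalized counts of these transcripts separated the groups widely. In HF mice 1 to 5, Gm42972 had 53.4, 51.4, 52.4, 42.2 and 52.2, and in NP mice 3, 4, 5, 6 and 8 it had 178, 179, 184, 174 and 172. Neither group spread by more than a fraction of the gap between them (log2 fold change −1.82, standard error 0.13, adjusted p = 6.31e-08). Its neighbours in Ank2 spread more among NP mice. Gm42971 had 100.4, 87.0, 126, 94.2 and 122 in HF and 231, 269, 446, 243 and 459 in NP (log2 fold change −1.63, adjusted p = 0.000674). Gm42970 had 73.7, 50.1, 43.7, 44.9 and 54.5 in HF and 114, 107, 178, 103 and 121 in NP (log2 fold change −1.23, adjusted p = 0.000676). NP mouse 5 was the highest NP mouse, or close to it, for all 3.

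Other transcripts inside genes of muscle, signaling, and transcription fell by similar amounts. BC002189, inside the sarcomeric ubiquitin ligase gene Trim55, had 197, 170.0, 222, 194 and 153 in HF and 503, 475, 456, 434 and 424 in NP. Gm42992, inside the transcriptional regulator Auts2, had 29.2, 38.2, 43.7, 29.9 and 27.6 in HF and 117, 93.1, 122, 96.4 and 106 in NP. Both fell, by 1.29 (standard error 0.16) and 1.66 (standard error 0.18) on the log2 scale, with adjusted p of 0.000252 and 7.65e-05. Gm43813 lies inside Mlxip, which encodes MondoA, a paralog in muscle of the factor encoded by Mlxipl, and had 49.6, 63.3, 64.6, 52.8 and 50.6 in HF and 139.8, 134, 179.6, 117 and 148 in NP. Gm38380, inside the coactivator gene Ncoa2, had 47.0, 55.3, 52.4, 46.6 and 49.1 in HF and 139, 109.8, 146, 119.6 and 104 in NP. Gm42480, inside the protocadherin Pcdh7, had 153, 141, 172, 149.6 and 153 in HF and 278, 239, 332, 403 and 359 in NP. For these 3 the log2 fold changes were −1.35, −1.30, and −1.07, each with an adjusted p of 0.000674. The remaining 5, C530043K16Rik, Gm45203 (in Idh2), Gm37033, Gm42432, and C130089K02Rik (in Maml3), fell by 1.20 to 1.72, and of these C130089K02Rik was called in 1, Gm42432 in 3, and Gm37033 in 5 of the 10 leave-one-out fits.

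The host genes changed far less than the transcripts inside them. The log2 fold changes of the 11 hosts lay between −0.43 (Ank2) and −0.01 (Maml3), and none was called, with adjusted p from 0.167 to 0.998 and 5 of them under an unadjusted p of 0.05. Ank2 itself ranged over 523 to 924 in HF and 799 to 1150.2 in NP. Idh2, an abundant mitochondrial dehydrogenase, ranged over 15468 to 24942 in HF and 18043 to 24204 in NP. The transcripts lay below their hosts by 0.64 to 1.71 on the log2 scale.

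**Figure D3:**
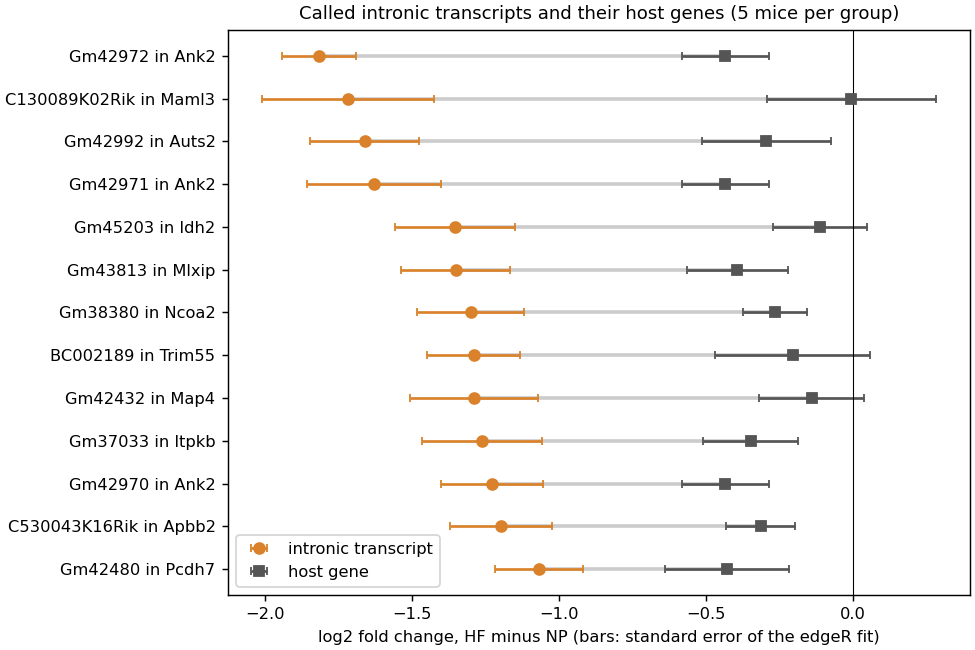
Log2 fold changes between HF and NP (horizontal axis) are shown for the 13 called transcripts inside coding genes (orange circles) and for their host genes (grey squares), with bars for the standard error of the fit (5 mice per group). Each circle lies to the left of its square, by 0.64 to 1.71.

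Most of the class lay in the same direction, with 406 negative and 32 positive log2 fold changes. Of 438 non-coding genes inside a coding gene on the same strand, 152 were lower and 0 higher in HF at an unadjusted p under 0.05, beside 7.91% lower and 5.17% higher among all genes tested. Their median log2 fold change was −0.67, against −0.12 for the 96 on the opposite strand, −0.11 for the 373 outside coding genes, and 0.01 for 12533 protein-coding genes. Of the 423 whose host gene was tested, 384 had a lower log2 fold change than the host, and the 289 hosts had a median of −0.06. With HF mice 1 and 3 left out, 126 were lower and 0 higher, and the class median was −0.78.

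The share of nuclear counts on this class, a measure chosen after the gene values had been seen, was 0.152, 0.148, 0.145, 0.124, and 0.121% in HF mice 1 to 5. In NP mice 3, 4, 5, 6 and 8 it was 0.237, 0.148, 0.273, 0.228, and 0.219%. NP mouse 4 lay within the HF range, and the other 4 NP mice lay above it. The difference was −0.083 percentage points (exact permutation p = 0.0238, p = 0.0333 when permuted within the first number of the library names, and p = 0.0536 without HF mice 1 and 3). All non-coding genes together took 1.78 ± 0.734% of nuclear counts in HF and 2.06 ± 0.813% in NP (SD, n = 5, exact permutation p = 0.579).

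Among protein-coding genes, those that span more of the genome were lower in HF more often. In the longest of 5 bins of gene span (74.76 to 2270.72 kb), 272 of 2505 genes were lower and 90 higher at an unadjusted p under 0.05, whereas in the shortest bin (up to 8.70 kb) 101 of 2506 were lower and 182 higher. Medians were small in both, at −0.05 and 0.05. These counts depended on the model in size but not in order, with 239 lower and 109 higher among the longest genes, and 86 and 210 among the shortest, under RLE size factors.

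**Figure D4:**
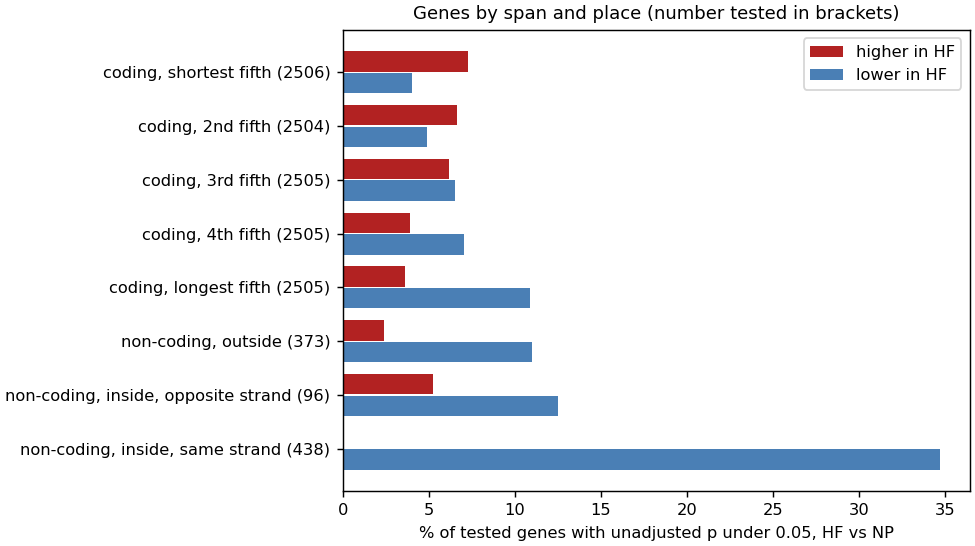
Bars give the percentage of tested genes with an unadjusted p under 0.05 in HF compared to NP (horizontal axis), higher in red and lower in blue, for 5 bins of protein-coding genes by span and for non-coding genes by place. Blue bars lengthen from 4.03% to 10.9% over the bins and reach 34.7% for non-coding genes inside a coding gene on its strand.

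Non-coding RNAs with loci of their own were also among the lower genes. Neat1, the nuclear RNA that scaffolds paraspeckles (chromosome 19, 5824708 to 5845478), had 4616, 6441, 4602, 4305 and 4430.1 in HF and 10967, 13995, 10189.8, 10891 and 9994 in NP (log2 fold change −1.20, standard error 0.15, adjusted p = 0.000389). HF mouse 2 and NP mouse 4 each stood above the other mice of their group, and the groups remained apart. The RNA 5430431A17Rik (chromosome 7, 44473538 to 44486138) had 55.9, 87.0, 55.9, 73.9 and 56.0 in HF and 314, 289, 319, 289 and 302 in NP, the largest fall among called genes (log2 fold change −2.21, standard error 0.18, adjusted p = 5.35e-07). 9430062P05Rik and the pseudogene Gm11510 fell by 1.05 and 1.40, and were called in 4 and 2 of the 10 leave-one-out fits.

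A330023F24Rik (chromosome 1, 194976375 to 195037904, overlapping Cd46 in part) is the annotated host of 2 microRNAs of the miR-29 family, whose members are known to bind collagen and elastin transcripts. The microRNAs themselves are not captured by this kit. It had 112, 113, 159.8, 82.7 and 104 in HF and 244, 211, 223, 213 and 219 in NP, with HF mouse 3 the highest of its group (log2 fold change −0.96, standard error 0.14, adjusted p = 0.0015). The mature 3p strands from RefSeq (GRCm38.p6, chromosome 1, plus strand, 195037091 to 195037113 and 195037600 to 195037621) are given because they share a seed, bases 2 to 8, shown in capitals.
mmu-miR-29b-3p: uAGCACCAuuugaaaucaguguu
mmu-miR-29c-3p: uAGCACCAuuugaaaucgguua

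Col3a1, a fibrillar collagen of interstitial matrix, had 1532, 1382, 2114, 1978 and 2489 in HF and 920.0, 1023, 1138, 933 and 1168 in NP, with all HF mice above all NP mice (log2 fold change 0.87, adjusted p = 0.0217). Of 26 tested collagen chains, 3 were higher and 0 lower at an unadjusted p under 0.05 (Col3a1, Col4a1, and Col14a1), beside 5.17% and 7.91% of all genes tested, and the median was 0.17. In a fit of the HF and NP libraries alone, 9 of 24 were higher and 1 lower. In that fit 1286 of all 13240 genes were higher and 1087 lower. Any relation between the miR-29 host RNA and collagen levels was not tested.

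At an adjusted p under 0.05, 57 genes were higher (0.407% of genes tested) and 100 lower (0.715%) with a mean normalized count over 50. Beyond the called genes, the higher ones with the smallest p included genes of leukocytes, stroma, and matrix. Alox5ap, which presents arachidonic acid to 5-lipoxygenase in myeloid cells, ranged over 219 to 314 in HF and 146 to 209 in NP (log2 fold change 0.71, adjusted p = 0.0127). The matrix metalloprotease Mmp14 (0.94), the hyaluronan receptor Cd44 (0.86), the chemokine Ccl9 (0.94), the fractalkine receptor Cx3cr1 (1.15), and the macrophage membrane protein Ms4a7 (0.80) followed. The matricellular protein Sparc (0.54), the plasminogen-binding Clec3b (0.57), the homeobox factor Meox1 (0.82), and Medag, a gene linked to fat cell differentiation (0.62), were higher too, in log2 units. Cdkn1a, the cell cycle inhibitor p21, had 531, 916, 821, 669.6 and 526 in HF and 264, 192, 354, 319 and 225 in NP, with no overlap (log2 fold change 1.35, adjusted p = 0.0222).

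The lower ones with the smallest p included central genes of heart muscle. Myh6, the fast myosin heavy chain of the adult mouse ventricle, had 63288, 62578, 56916, 61207 and 53248 in HF and 110557, 103541, 86689, 93623 and 89472 in NP (log2 fold change −0.70, standard error 0.13, adjusted p = 0.0124). Cacna1c, the pore of the L-type calcium channel, had 689, 781, 898, 909.9 and 1013 in HF and 1533, 1455, 1326, 1352 and 1400.1 in NP (log2 fold change −0.72, standard error 0.14, adjusted p = 0.0118). HF mouse 1 was the lowest for Cacna1c and the highest of its group for Myh6, and neither gene overlapped between groups. The class IIa histone deacetylase Hdac4 (−0.68), the lysophospholipase Pnpla7 (−0.59), the O-GlcNAc transferase Ogt (−0.55), the laminin chain Lamb2 (−0.65), the motor protein Myo5c (−1.13), Tmem150a (−0.69), and the X-linked non-coding RNA Firre (−0.89) were lower in log2 units, with adjusted p from 0.0118 to 0.0172. So were the pseudogene Slc2a4rg-ps (−0.98) and the intronic Gm38197 (−0.97) and Gm43281 (−1.36).

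The gene lists described next were chosen with results of these data known, so their counts carry no test, and they are set beside the 5.17% of all genes that were higher and the 7.91% that were lower at an unadjusted p under 0.05. In a fit of the HF and NP libraries alone the balance over all genes turned, with 1286 higher and 1087 lower. Markers of monocytes and recruited macrophages had the highest median of the lists with 10 or more members. Of 21 tested, 17 were higher and 0 lower, the median was 0.65, and for 10 of them the HF range lay wholly above that of NP. Tyrobp, the signaling adapter of myeloid receptors, ranged over 234 to 361 in HF and 177 to 214 in NP (log2 fold change 0.65), and the high-affinity Fc receptor Fcgr1 over 39.4 to 104 and 25.1 to 40.4 (1.26). The summed marker level was 358 to 474 CPM in HF and 229 to 269 CPM in NP, lowest among HF mice in HF mouse 1. Endothelial markers summed to 1104 to 1349 CPM in HF and 959 to 1066 CPM in NP, but 1 of 15 was higher. That count was 2 with RLE size factors and 5 in the fit of the HF and NP libraries alone. Erythroid markers overlapped, at 6169 to 13512 and 3245 to 10074 CPM. These sums are relative to totals that include the mitochondrial counts, which took a smaller share in HF. The part of such marker levels in the other gene differences was not tested. Whether more such cells or more RNA per cell lies behind a level cannot be told apart in bulk tissue.

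Genes of related immune functions followed. Resident macrophage markers were higher for 7 of 18, led by Ms4a7 and the folate receptor Folr2 (0.67), and all 18 had a positive log2 fold change, with a summed level of 639 to 804 CPM in HF and 494 to 604 CPM in NP. Complement genes were higher for 8 of 19, including the receptors C3ar1 (0.60) and C5ar1 (0.92), the C1q chain C1qb (0.58), and C3, which ranged over 2018 to 3003 in HF and 1572 to 1864 in NP. Chemokines were higher for 9 of 21. Ccl12 had 22.9, 21.1, 74.2, 88.0 and 121 in HF and 12.1, 19.1, 19.7, 13.8 and 19.2 in NP, low counts in which HF mice 1 and 2 lay close to the NP mice. MHC class II genes were higher for 0 of 9, and B and T lymphocyte markers for 1 of 15. Of 37 lysosome genes 7 were higher, among them Cd68 (0.60) and Ctsz (0.40), and the cholesterol exporter of the lysosome Npc1 was lower, with 381 to 560.1 in HF and 632 to 729.7 in NP.

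Of 48 matrix proteins other than collagens, 13 were higher and 3 lower, the latter share no larger than that of all genes tested. Sparc had 7394, 7729, 6072, 7024 and 6563 in HF and 4731, 4166, 4769, 5623 and 4689 in NP, and the crosslinking enzyme Loxl1 (0.58) and the collagen prolyl hydroxylase subunit P4ha1 (0.50) were likewise higher without overlap. Tnxb, a tenascin that organises collagen fibrils, was lower (−0.70). Of 17 matrix proteases and inhibitors 6 were higher, among them Mmp14, Mmp3 (1.05), and Adamts2 (0.61). Fibroblast markers were higher for 1 of 14 (Mmp2, 0.36), and their summed level overlapped, at 1954 to 2645 CPM in HF and 1727 to 2230 CPM in NP. Without HF mice 1 and 3, the count of higher matrix proteins was 7.

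In contrast, lists of heart muscle function held lower members. Of 15 ventricular markers 5 were lower and 0 higher, of 27 calcium handling genes 5 were lower and 1 higher, and of 25 ion channel and junction genes 7 were lower and 1 higher. The ryanodine receptor Ryr2 ranged over 7954 to 11756 in HF and 10546 to 18719.6 in NP (log2 fold change −0.65), with NP mouse 4 within the HF range. Actn2, the actin crosslinker of the Z-disc, had a log2 fold change of −0.41 without overlap, and the inositol trisphosphate receptor Itpr1 of −0.45. The potassium channel subunits Kcna5 (0.50) and Abcc9 (−0.42) lay on opposite sides. Titin (Ttn), the longest coding sequence of the genome, ranged over 32776 to 86418 in HF and 46262 to 148193 in NP, a wide spread within both groups (log2 fold change −0.86, standard error 0.40). Without HF mice 1 and 3 the lower counts were 2 of 15 ventricular markers, 6 of 27 calcium handling genes, and 4 of 25 channel genes.

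The natriuretic peptide gene Nppa, a hypertrophy gene that is also the leading atrial marker, followed the uneven atrial markers. It amounted to 8458 CPM in HF mouse 1, 2760 CPM in HF mouse 3, and 114 to 180 CPM in the other HF mice, beside 94.7 to 2136 CPM in NP, so that no diet difference in it can be separated from the atrial counts. Smooth muscle and pericyte markers were lower for 5 of 13, and for 3 without HF mice 1 and 3. Smooth muscle myosin Myh11 had 123, 158, 114, 118 and 126 in HF and 389.6, 494, 298, 204 and 287 in NP (log2 fold change −1.39, adjusted p = 0.0341), and Notch3, a receptor of mural cells, had 187 to 247 and 292 to 357 (−0.56). The summed level of this list overlapped between groups, at 589 to 820 CPM in HF and 649 to 743 CPM in NP.

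Lists of energy metabolism differed in their counts. Fatty acid oxidation genes were higher for 0 and lower for 0 of 24, with a median of 0.04, and nuclear-encoded complexes III to V for 0 and 0 of 36. Of 17 PPAR-responsive genes 3 were higher and 0 lower, with a median of 0.25. The higher count was 6 without LP mouse 13 and 2 without HF mice 1 and 3. It was 8 in a fit of the HF and NP libraries alone, in which 1286 of all 13240 genes were higher. Among the PPAR-responsive genes were the fatty acid transporter Cd36 (0.25) and Pdk4, the kinase that shuts off pyruvate oxidation. Pdk4 had 112, 84.3, 2554, 306 and 2274 in HF and 41.8, 473, 65.6, 68.0 and 509 in NP, so that HF mice 3 and 5 were far above all others and HF mice 1, 2, and 4 lay within the NP range. Cd36 had 8931, 10278, 10107, 10318 and 10324 in HF and 8712, 8576, 7913, 8838 and 8103 in NP, a small difference without overlap.

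On the glucose side, Slc2a4, the insulin-responsive glucose transporter GLUT4, had 3129, 3608, 2853, 3389.6 and 3223 in HF and 4315, 4394, 3873, 4217 and 4088 in NP (log2 fold change −0.37, adjusted p = 0.123). Ogdh, a subunit of the oxoglutarate dehydrogenase of the citrate cycle, had 11036, 11954, 10050.2, 12407 and 11569.6 in HF and 15374, 17715, 15896, 16746 and 14837 in NP (log2 fold change −0.50, adjusted p = 0.0196). Both were separate between groups. The regulatory enzyme of glycolysis Pfkfb1 was also lower (log2 fold change −1.10, adjusted p = 0.0476), and the insulin receptor Insr (−0.43), glycogen synthase Gys1 (−0.53), and Foxo3 (−0.39) were lower at an unadjusted p under 0.05. So were the lipogenic genes Acacb (−0.50), Dgat2 (−0.62), and Lpin1 (−0.28). Most members of these lists did not differ at that threshold. Lower were 3 of 25 genes of glycolysis and pyruvate oxidation and 1 of 18 of the citrate cycle. The counts were 3 of 25 for insulin and IGF signaling and 3 of 18 for fatty acid and triglyceride synthesis, beside 7.91% of all genes tested. In each list 0 were higher. Without HF mice 1 and 3 the lower counts were 2, 1, 2, and 1, in the same order. Of 20 genes of branched-chain amino acid breakdown 7 were lower and 0 higher, with a median of −0.21, including Bcat2, the aminotransferase of the first step (−0.51), the phosphatase Ppm1k (−0.35) and the kinase Bckdk (−0.26) that oppose each other on the second step, and Mccc1 (−0.36). Without HF mice 1 and 3, 3 of the 20 were lower.

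Counts on the mitochondrial genome fell as a share of all counts, to 38.7 ± 0.751% in HF from 43.2 ± 2.48% in NP (SD, n = 5), with every HF mouse below every NP mouse (exact permutation p = 0.00794). The most abundant of these transcripts, mt-Nd4 of complex I, had a log2 fold change of −0.43 with no overlap between groups (unadjusted p = 0.0276). It was the lower one of 8 mitochondrially encoded proteins at an unadjusted p under 0.05, mt-Nd6 was the higher one (log2 fold change 0.81, ranges overlapping), and the median of the 8 was −0.13. Of 12 mitochondrial tRNA genes, 5 were higher and 1 lower at an unadjusted p under 0.05, with a median of 1.27. The isoleucine tRNA mt-Ti had 3679, 3242, 2996, 2755 and 3546 in HF and 1574, 899.8, 483, 1048 and 239 in NP (log2 fold change 1.93, standard error 0.39, adjusted p = 0.0172). The NP mice spread several-fold in it, and mt-Ti overlaps a neighbouring tRNA on the other strand in the mitochondrial genome. How the authors' counting treated strand is not given in the sources used here.

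Clock genes had the lowest median of the lists with 10 or more tested members, −0.45 over 20 genes, with 5 lower and 2 higher. The lower and higher counts were 12 and 3 in a fit of the HF and NP libraries alone, and 3 and 1 without HF mice 1 and 3. Per3, a light-phase repressor of the clock, had 400.5, 344, 224, 253 and 278 in HF and 887, 901, 797, 798 and 901 in NP (log2 fold change −1.52, standard error 0.44, adjusted p = 0.09). Per1 had 333, 364, 238, 220.0 and 201 in HF and 462, 783, 557, 554 and 504 in NP, and the repressor Ciart 122, 51.4, 21.8, 50.2 and 68.3 and 146, 150.4, 195, 179 and 157. All 3 were separate, with HF below NP. Arntl, which encodes the activator BMAL1, had 7.63, 3.95, 114, 51.9 and 85.9 in HF and 8.80, 10.7, 9.18, 7.74 and 21.5 in NP, so that HF mice 3, 4, and 5 were high and HF mice 1 and 2 were not above the NP mice. The first number in the library names, whose meaning is not given, is 3 for those 3 HF mice and 1 and 2 for the other 2. Tissue was collected in the middle of the light phase, the hour of each mouse is not given in the sources used here, and its part in these values was not tested. NP mice 5 and 8, with Arntl at 9.18 and 21.5, also carry the number 3. With that number as a factor in the fit, 4 clock genes were lower and 0 higher, and the median was −0.43.

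Chromatin regulators were lower for 16 of 59 and higher for 0, with a median of −0.22 (12 lower without HF mice 1 and 3). Next to Kmt2d and Hdac4 these included the H3K79 methyltransferase Dot1l, with 606 to 815 in HF and 1002 to 1303 in NP (−0.70), and the H3K4 methyltransferase Setd1b (−0.40). Of 33 splicing factors 6 were lower and 0 higher, among them the nuclear speckle proteins Srrm2 (−0.62) and Son (−0.45), in both of which NP mouse 4 lay within the HF range (3 lower without HF mice 1 and 3). Of 20 long non-coding RNAs 5 were lower and 1 higher, with Meg3, an imprinted RNA, at 235 to 389 in HF and 449 to 664 in NP (log2 fold change −0.83, adjusted p = 0.0197).

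Some stress-related lists held higher members. Aminoacyl-tRNA synthetases were higher for 0 of 20, and genes of endoplasmic reticulum translocation and folding for 2 of 38, about the share of all genes tested. Of 28 targets of ATF4, 6 were higher and 1 lower, among them the cytokine Gdf15, with 132, 329, 100.4, 173 and 185 in HF and 25.3, 63.3, 61.6, 118 and 46.4 in NP (1.53), the asparagine synthetase Asns (0.98), and Nupr1 (0.59). In the one-carbon list, however, Mthfd2 was the only member of 17 that was higher, and Mthfd1l was lower (−1.39). Immediate early genes were higher for 6 of 20, including Atf3, with 36.1 to 74.2 in HF and 15.4 to 37.0 in NP, and Egr1 (0.64), and for 3 without HF mice 1 and 3. Heat shock chaperones were higher for 4 of 20, and for 2 without HF mice 1 and 3, for example Dnaja1 (0.44). Of 30 antioxidant genes 4 were higher and 0 lower, and Srxn1 (0.48) and Gpx1 (0.56) were higher without overlap. Of 18 tubulin and actin genes 6 were higher, led by Tuba1a, with 1328 to 1662 in HF and 778 to 1075 in NP (0.64), and 1 was lower (Tuba4a, −0.55). Cytosolic ribosomal protein genes had positive log2 fold changes for 66 of 77, by a median of only 0.11. At an unadjusted p under 0.05, 4 were higher, about the 5.17% of all genes tested. In a fit of the HF and NP libraries alone 16 were higher, as were 1286 of all 13240 genes.

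**Figure D5:**
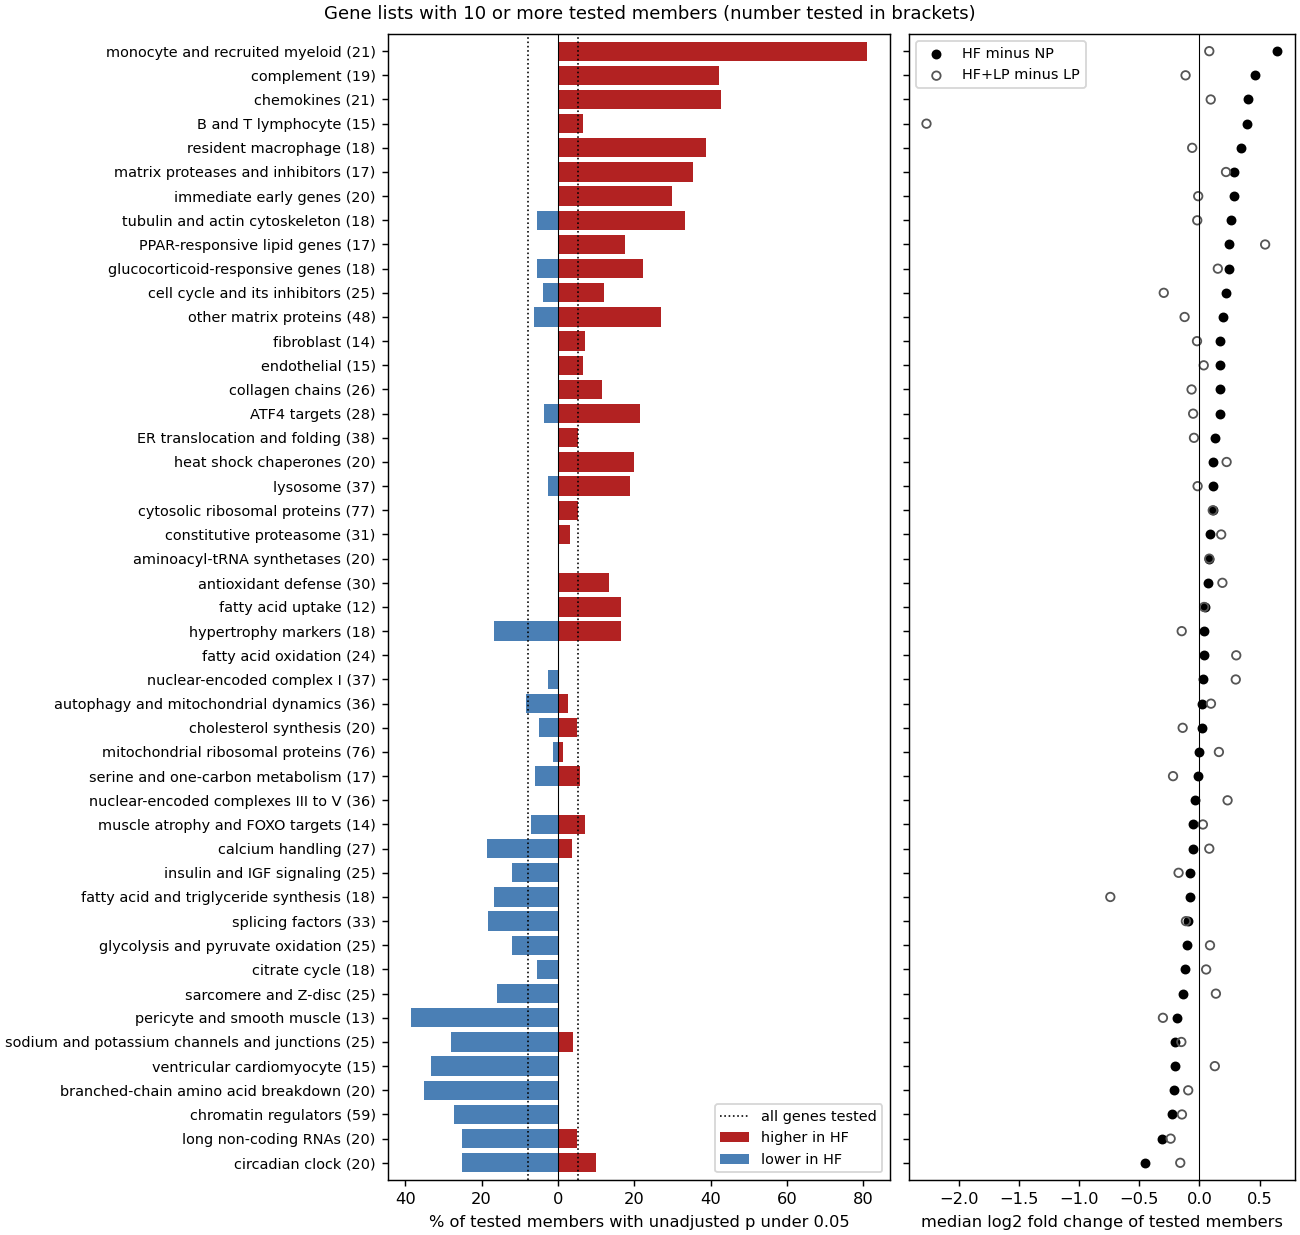
For gene lists with 10 or more tested members, bars in the left panel give the percentage of members with an unadjusted p under 0.05 that were higher (red, to the right) or lower (blue, to the left) in HF, with dotted lines at the 5.17% and 7.91% of all genes tested. The right panel gives the median log2 fold change of each list for HF minus NP (filled) and for HF+LP minus LP (open), and monocyte and recruited myeloid markers have the highest filled median, 0.65.

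The same fat contrast at low protein, HF+LP compared to LP, called 14 genes (0.100% of genes tested). The 7 genes higher in HF had positive and the 30 lower genes negative log2 fold changes in that contrast, each smaller in size than in HF compared to NP, the contrast on which they were chosen. Their medians were 0.38 beside 1.19 for the higher and −0.72 beside −1.13 for the lower genes. At an unadjusted p under 0.05, 4 of the 7 and 28 of the 30 had the same direction there. For example, Kmt2d differed by −0.78 at low protein, 5430431A17Rik by −1.86, and Gm42972 by −0.85, whereas Phf11b differed by 0.10 and Nfatc2 by −0.09. The difference between the fat effects at the 2 protein contents, tested as an interaction, was called for 0 genes by edgeR, with 1003 of 13991 genes at an unadjusted p under 0.05, and for 1 gene, Bmp10, by DESeq2. Bmp10 is one of the uneven atrial markers, which summed to 12460 CPM in HF mouse 1 and 18063 CPM in LP mouse 13. An unadjusted interaction p under 0.05 was reached by 5 of the 7 higher and 14 of the 30 lower genes. These genes were chosen on HF compared to NP, which is part of the interaction, so this count carries no test. Among the 37 genes the smallest adjusted interaction p was 0.258, so a smaller fat effect at low protein was not shown for any of them. For the 438 non-coding genes inside coding genes, 67 were lower and 0 higher at low protein (median −0.28), where 9.66% of all genes tested were lower and 6.26% higher and the median of all genes was −0.03. LP mouse 13 stands apart from its group, with a median correlation of 0.908 with the other LP libraries, and without it 3 genes were called in HF+LP compared to LP and 69 in HF compared to NP, including all 37.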

How the data were processed

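Left ventricular RNA of 20 mice was sequenced as 3′ mRNA libraries (QuantSeq, 1 library per mouse). Alignment was done by the authors on the BlueBee platform, and what they deposited are raw counts per Ensembl gene. The submitters' processing notes name GRCm38 and DESeq2 1.22.2, and the counting program, its strand setting, and the annotation release are not given in the sources used here. The counts were matched to GENCODE M21 (15917 of 15956 genes), which gave symbols, types, and positions.

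Counts were tested in R 4.3.3 with edgeR 4.0.16 (filterByExpr, TMM scaling, quasi-likelihood fit of all 4 groups without covariates, 2-sided), and standard errors were derived from the F statistic. DESeq2 1.42.0, RLE scaling, other filters and thresholds, leaving out mice, and a replicate block served as alternatives. The scripts were tested on simulated counts. Body weights and shares of counts were compared with 2-sided exact permutation tests. P-values compare 5 mice with 5. Chi-square tests of counts between libraries of HF and between libraries of NP found no pair alike within sampling noise.

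The comparison, the gene lists, and the tests were chosen with earlier results of these data known. Genes were named by rule: every called gene, the 12 higher and 12 lower genes next by p with an adjusted p under 0.05, the 5 higher and 5 lower with the largest fold change among those, up to 4 members of each of 55 lists with the smallest unadjusted p under 0.05, and host genes of called transcripts. Interferon and MHC class I genes and genes the study displayed were left out of all but the first part of this rule. Some genes that the rule names are not reported here.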

Additional observations from a re-analysis of the deposited data

Results flagged for a closer look

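Among 384 groups of 5 mice, 23 held a value farther from its neighbours than Dixon's 95% critical value allows, and chance alone flags about 1 in 20 groups. HF mouse 2 was set apart in 6 of them, being highest for Neat1 (6441 normalized counts), Myh11 (158), Slc4a1 (76.4), Itpkb (874), and Alas2 (1293), and lowest for Insr (472). In HF mouse 3, Ucp1 was high (568) and C130089K02Rik low (10.5). HF mouse 1 was lowest for Cd36 (8931), and HF mouse 4 was lowest for Gm42972 (42.2).

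Among NP mice, mouse 4 was highest for Neat1 (13995) and Pnpla7 (208) and lowest for C130089K02Rik (28.6). NP mouse 3 was highest for Emp1 (339), Meg3 (664), and Alas2 (790.2), and stood apart for Serp1 (318). NP mouse 5 was highest for Gm42970 (178) and Mmp3 (91.8) and stood apart for Luc7l (531). NP mouse 8 was highest for Egr1 (207) and Arntl (21.5), and NP mouse 6 stood apart for Hsph1 (365). The Ucp1 value came from the library with the most adipocyte marker counts among the HF and NP libraries, and Alas2 and Slc4a1 are genes of red blood cells. No explanation of these values was tested.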

How the results depend on the processing

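All 37 genes kept their direction under the 23 alternatives, while the number called did not hold. DESeq2 called 163 genes (69 higher, 94 lower), an adjusted p under 0.05 gave 157 (57 and 100), and without LP mouse 13 edgeR called 69 (16 and 53). With the HF and NP libraries alone, edgeR called 61 (23 and 38) and DESeq2 392 (171 and 221). Without HF mice 1 and 3, 20 higher and 16 lower genes were called. Leaving out 1 mouse gave 20 to 32 calls (3 to 11 higher, 17 to 28 lower), with 20 without NP mouse 6 or HF mouse 4. The replicate block by animal number left 2 calls, 0 higher and 2 lower (Gm42972 and 5430431A17Rik), but same-numbered HF and NP mice did not deviate together (r = −0.482, 0.130, and −0.355 for numbers 3, 4, and 5). Same-numbered mice of other pairs of groups were not compared. For HF+LP compared to LP, 14 calls became 84 with DESeq2, 45 at an adjusted p under 0.05, 5 with the first library number as a factor, 0 with the replicate block, 3 without LP mouse 13, 2 without HF mice 1 and 3, and 3 to 15 without 1 mouse. DESeq2 called 1 gene for the interaction, against 0. The cause of these changes was not tested.

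The difference in total counts lay between −660554 and 1349150 without 1 mouse, and that in the non-coding share between −0.545 and 0.0267 percentage points. The share on non-coding genes inside coding genes no longer passed without HF mice 1 and 3 (−0.0898, exact permutation p = 0.0536). That difference was no smaller than the −0.0829 with all mice, and fewer mice allow fewer arrangements in the test. Among named genes Ucp1 turned from 4.64 to −0.21 without HF mice 1 and 3 and lay between −0.42 (without HF mouse 3) and 5.87 without 1 mouse, and Idh2 from −0.11 to 0.067 without HF mice 1 and 3. Maml3, at −0.01, became 0.0147 with RLE scaling, 0.0148 without mitochondrial genes, 0.0149 with DESeq2, and, on HF and NP alone, 0.0127 with DESeq2 and 0.0320 with edgeR. It lay between −0.12 and 0.15 without 1 mouse. Genes with few counts, such as Ccl12 and most transcripts inside coding genes, had large standard errors.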
